A study of Homo sapiens with 6 samples.

Results

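The chemokine and epithelial cytokine transcripts of a pancreatic cancer line were compared between cells sorted for high and for low surface L1CAM. The members were the rows of the count table whose Ensembl identifiers map to CXCL1, CXCL2, CXCL3, CXCL5, CXCL8, CXCL16, CCL20, IL1A, IL18 and LIF. Of these 10 genes, 9 had counts among the 19469 genes of the table, and IL1A was not analysed here. Each gene of that table, the 9 members included, exceeded 1 CPM (counts scaled to the library total) in at least 2 libraries. This says nothing about the level of genes without a row.

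L3.6pl, an established human pancreatic cancer line with metastatic capacity, was grown in DMEM with serum and no treatment, and was sorted by FACS into L1CAM-positive cells, called L1high, and L1CAM-negative cells, called L1low. The study asked how the transcripts of PDAC (pancreatic ductal adenocarcinoma) cells differ with their L1CAM level, and each population gave 3 mRNA libraries. The sort separates cells of 1 line, with no engineered change between the groups. The labels spell the line L6.6pl in one field and L3.6PL elsewhere, and no label ties a library to a separate culture or sort. The p-values therefore measure the spread between these libraries, which may be technical.

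Chemokines are small secreted proteins that guide leukocytes by binding G protein-coupled receptors. The CXC chemokines with the residues Glu-Leu-Arg before the first cysteines (ELR+) include CXCL1, CXCL2, CXCL3, CXCL5 and CXCL8. They bind CXCR2, and CXCL8 also CXCR1, and attract neutrophils, and tumour epithelium is a known source of them. IL1A, IL18 and LIF are cytokines that epithelial cells also make, and LIF signals through LIFR and gp130 to JAK kinases and STAT3.

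Total counts ran from 16334610 to 21064685 per library, with L1high replicate 3 the lowest. The sorting marker L1CAM stood at 84.0, 69.8 and 89.5 CPM in L1high replicates 1, 2 and 3 and at 17.7, 23.7 and 20.0 CPM in L1low replicates 1, 2 and 3. On the log2 scale L1CAM differed by -1.99 (standard error 0.12, adjusted p = 4.7e-06), so the labels and the marker went the same way. The model of a coding gene, ENSG00000284987, overlaps L1CAM by 13953 bases on the same strand. Its part in the L1CAM counts was not tested. Here and in what follows a fold change is L1low over L1high on the log2 scale, and p-values come from the quasi-likelihood test of edgeR, adjusted by the Benjamini-Hochberg method across 19467 tested genes. A gene is called lower or higher where that p is under 0.05. L1high replicate 3 stood lowest in its group for 8 of the 9 members and highest for LIF. The name of the sheet with the study's supplementary comparison shows this library left out, while the methods text does not mention it. No reason is given in the sources used here, and values without this library are given where a call depends on it.

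Of the 9 members tested, 6 were called lower in L1low cells and 0 higher. LIF, CXCL8, CXCL1, CXCL2, CXCL3 and CXCL16 fell, while CXCL5, CCL20 and IL18 did not pass the test. Among all genes tested, 3.37% were called lower and 4.58% higher. The members were chosen with earlier results of these data known, and CXCL1, CXCL2 and CXCL3 are near copies. The count beside these shares is therefore a description and no test of the list. The median fold change of the members was -0.54, and that of all genes was -0.01. In the same 6 members all 3 L1low libraries lay below all 3 L1high libraries, a pattern that 13.7% of all genes tested showed. Without L1high replicate 3 the count was 7, with CXCL5 added, against 3.15% of all genes called lower. In bulk RNA of a sorted population, fewer cells that make a transcript and less RNA of it per cell cannot be told apart.

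**Figure D1:**
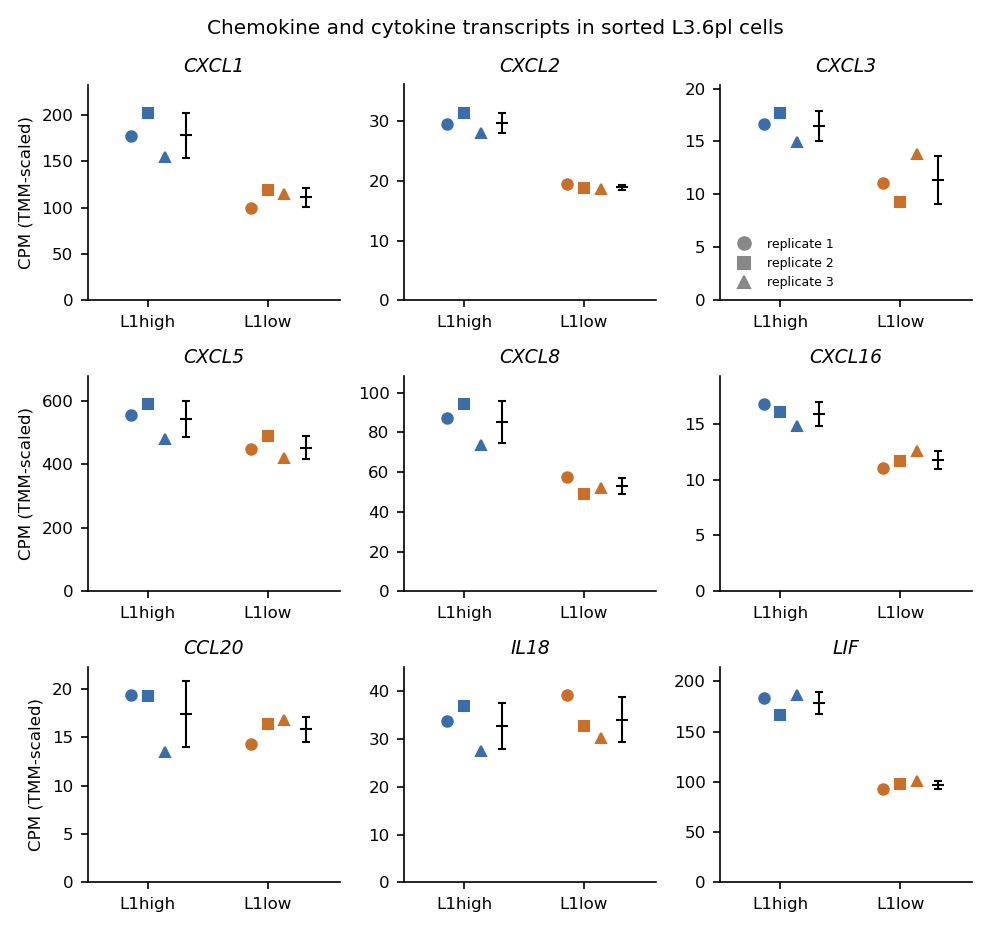
Level of each of the 9 members in every library, in CPM scaled by TMM factors on a linear axis from 0. Blue points are the L1high and orange points the L1low libraries, the marker shape gives the replicate number, and the black bars are the mean and SD (n = 3). The groups stand apart in CXCL1, CXCL2, CXCL3, CXCL8, CXCL16 and LIF and overlap in CXCL5, CCL20 and IL18.

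The ELR+ chemokine genes of the list lie together on chromosome 4 within the CXC cluster (GRCh38). CXCL8 (ENSG00000169429) runs from 73740519 to 73743716 and CXCL1 (ENSG00000163739) from 73869393 to 73871308 on the plus strand. On the minus strand lie CXCL5 (ENSG00000163735) from 73995642 to 73998677, CXCL3 (ENSG00000163734) from 74036589 to 74038807 and CXCL2 (ENSG00000081041) from 74097040 to 74099196. The main transcript of each of the 5 has 4 exons. Promoters of this cluster and that of CCL20, the CC chemokine of the list, are shown because NF-kB sites next to the start are a textbook feature of these genes. RefSeq windows on GRCh38.p14 were found for 7 of the 10 members. The stretch from 105 to 11 bases before the RefSeq start is printed 5′ to 3′ on the coding strand, with capitals on matches to the kappa-B consensus or the TATA box.
CXCL1: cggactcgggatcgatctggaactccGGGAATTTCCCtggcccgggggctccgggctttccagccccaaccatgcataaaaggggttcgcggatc
CXCL2: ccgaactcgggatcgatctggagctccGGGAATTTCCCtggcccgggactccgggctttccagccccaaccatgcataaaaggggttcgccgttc
CXCL3: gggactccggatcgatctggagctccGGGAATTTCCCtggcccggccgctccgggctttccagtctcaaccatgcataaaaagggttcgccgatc
CXCL5: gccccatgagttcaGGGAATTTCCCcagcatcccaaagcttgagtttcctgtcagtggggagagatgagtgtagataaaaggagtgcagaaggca
CXCL8: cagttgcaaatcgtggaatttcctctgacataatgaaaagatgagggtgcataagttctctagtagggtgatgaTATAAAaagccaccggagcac
CCL20: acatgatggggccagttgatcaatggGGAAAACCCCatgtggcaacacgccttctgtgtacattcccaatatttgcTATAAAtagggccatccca
These windows are chr4:73869288-73869382 and chr4:73740464-73740558 on the plus strand, chr4:74099206-74099300, chr4:74038700-74038794 and chr4:73998688-73998782 on the minus strand, and chr2:227813737-227813831 on the plus strand. In the GENCODE models, which include longer transcripts, those of CXCL3, CXCL8 and CCL20 lie partly or wholly inside the gene.

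A match to the kappa-B consensus, searched on both strands, lay 79 bases before the start in CXCL1, 78 in CXCL2, 79 in CXCL3 and 91 in CXCL5. In all 4 it was the same run of letters, which matches on either strand. CCL20 held another match, on the minus strand, 79 bases before its start, and a TATA box (TATAAA) 29 bases before it. The CXCL8 window of 300 bases held no match to the kappa-B consensus as searched, a TATA box 31 bases before the start and an AP-1 motif (TGANTCA) 137 bases before it. Its printed stretch holds tggaatttcc, which differs from the GGGAATTTCC of CXCL1 only at the first base. The lack of a match in CXCL8 is therefore not the lack of a similar site. Of all 35116 RefSeq windows of this length, 11.3% held a kappa-B match, 7.71% an AP-1 match and 11.5% a TATA box. Over the whole window CXCL1 shared 82.5% of aligned bases with CXCL3 and 72.1% with CXCL2, while CXCL1 and CXCL8 shared 42.6%. CXCL5, with the same kappa-B letters as CXCL1 to CXCL3, had a smaller fold change than any of those 3, a difference that was not tested. Members with and without a match are too few for a comparison.

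CXCL8, also known as interleukin 8 and a strong neutrophil attractant, stood at 87.1, 94.4 and 73.5 CPM in L1high replicates 1, 2 and 3 and at 57.3, 49.2 and 52.2 CPM in L1low replicates 1, 2 and 3. Every L1low library was below every L1high library, and the gap between the groups exceeded the range of the L1low libraries. CXCL8 had a fold change of -0.69 (standard error 0.10, 95% interval -0.90 to -0.47, adjusted p = 0.00135), or 0.622 times the L1high level. It was called lower in all 13 alternatives, between -0.77 and -0.60.

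CXCL1, first known as a melanoma growth factor and a ligand of CXCR2, stood at 177, 202 and 154 CPM in L1high and at 99.4, 119 and 115 CPM in L1low replicates 1, 2 and 3. The lowest L1high library, replicate 3, was still above the highest L1low library. Its fold change was -0.68 (standard error 0.10, 95% interval -0.90 to -0.46, adjusted p = 0.00176), with means of 178 ± 24.1 and 111 ± 10.3 CPM (SD, n = 3). CXCL2, the near relative that macrophages also release, stood at 29.6, 31.4 and 28.0 CPM in L1high and at 19.4, 18.7 and 18.7 CPM in L1low replicates 1, 2 and 3. Its L1low libraries were the most alike of any member in these units, with an SD of 0.416 CPM. The fold change of CXCL2 was -0.65 (standard error 0.09, 95% interval -0.84 to -0.45, adjusted p = 0.0011). CXCL1 and CXCL2 were each called lower in all 13 alternatives, between -0.76 and -0.58 for CXCL1 and between -0.68 and -0.60 for CXCL2.

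CXCL3, the least abundant of the ELR+ members, stood at 16.7, 17.7 and 14.9 CPM in L1high and at 11.1, 9.25 and 13.8 CPM in L1low replicates 1, 2 and 3. The groups did not overlap, but L1low replicate 3 and L1high replicate 3 lay close together. This gave a fold change of -0.54 (standard error 0.14, 95% interval -0.85 to -0.22, adjusted p = 0.0429). It stayed negative but missed the threshold without L1high replicate 1 (-0.53, adjusted p = 0.146), L1high replicate 2 (-0.48, adjusted p = 0.112), L1low replicate 1 (-0.52, adjusted p = 0.105) and L1low replicate 2 (-0.41, adjusted p = 0.186).

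CXCL1, CXCL2 and CXCL3 are near copies of one another, and reads of one can be assigned to another or discarded. Their coding sequences were identical at 93.5% of aligned bases between CXCL1 and CXCL2, 90.7% between CXCL1 and CXCL3 and 94.4% between CXCL2 and CXCL3. Stretches of 75 bases without a difference were rare in their transcripts: CXCL1 shared 0.273% of its stretches with CXCL2, and CXCL2 shared 2.21% with CXCL3. The multi-mapping setting of the counting is not given in the sources used here. Counted as 1 gene, an alternative chosen after seeing the data, the 3 had a fold change of -0.66 (adjusted p = 0.001).

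CXCL5, made by epithelial cells and known from airway and gut inflammation, was the most abundant member. It stood at 557, 591 and 479 CPM in L1high and at 449, 490 and 419 CPM in L1low replicates 1, 2 and 3. The groups overlapped, since L1high replicate 3 lay below L1low replicate 2. The fold change was -0.26 (standard error 0.09, 95% interval -0.45 to -0.07, adjusted p = 0.0897), which did not pass the test. Without L1high replicate 3 it was -0.33 (adjusted p = 0.0255), and CXCL5 was then called lower. CXCL6, the close relative of CXCL5 in the same cluster and no member of the list, had a fold change of -0.48 (standard error 0.16, adjusted p = 0.0869) and likewise passed without L1high replicate 3 (-0.61, adjusted p = 0.0247). Among the 13 alternatives each of CXCL5 and CXCL6 was called in 2, this one and the fit with a replicate block.

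**Figure D2:**
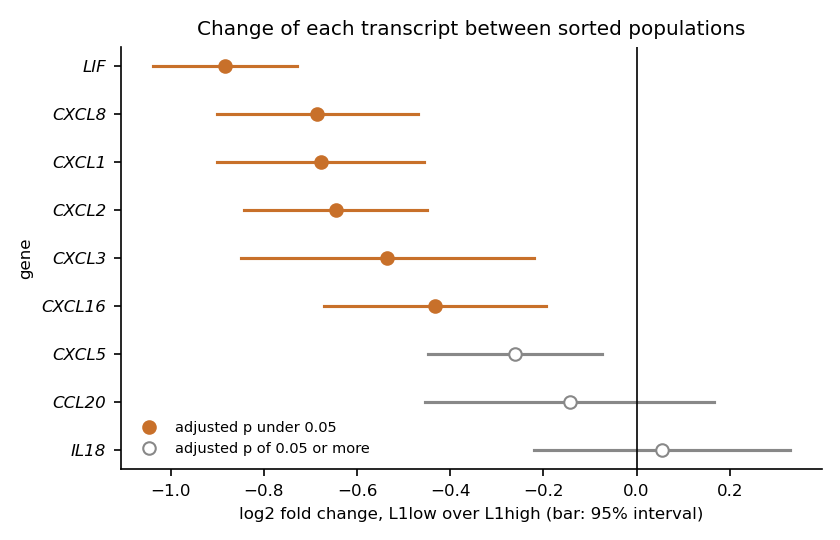
Fold change of each member, L1low over L1high on the log2 scale, as points with their 95% intervals. Filled points have an adjusted p under 0.05, and the intervals of CCL20 and IL18 include 0 while that of CXCL5 does not.

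Summed over CXCL1, CXCL2, CXCL3, CXCL5, CXCL6 and CXCL8, the ELR+ level was 879, 950 and 759 CPM in L1high and 644, 696 and 625 CPM in L1low replicates 1, 2 and 3. CXCL5 made up 63.3%, 62.2% and 63.2% of those counts in the L1high and 69.7%, 70.4% and 67.0% in the L1low libraries. Per kilobase of exon, the level of CXCL5 was 1.76, 1.63 and 1.74 times that of CXCL1 in L1high and 2.52, 2.30 and 2.04 times in L1low. The share of CXCL5 among the ELR+ transcripts was thus larger in each L1low library than in any L1high library, while their sum was lower. The mean level of CXCL5 itself was not higher, at 542 CPM in L1high and 453 CPM in L1low. The shares and ratios are a description and were not tested.

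**Figure D3:**
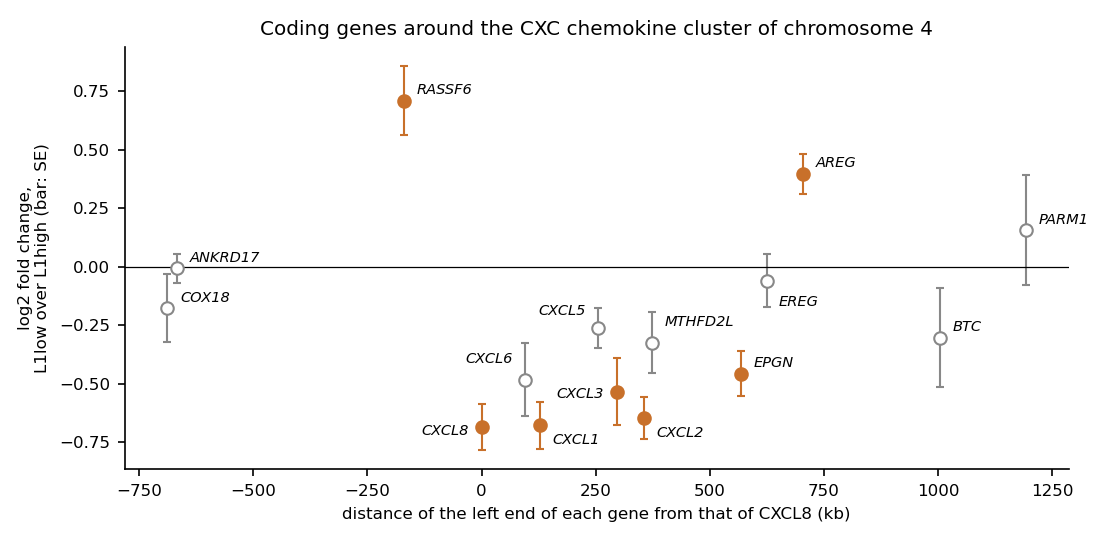
Fold change with its standard error, L1low over L1high on the log2 scale, of the coding genes within 1 Mb of the chromosome 4 cluster against the distance of their left ends from that of CXCL8 in kb. Filled points are called, and the 6 measured ELR+ chemokine genes lie below 0, with CXCL5 and CXCL6 not called. RASSF6 (0.71) and AREG (0.40) on either side were called higher and EPGN (-0.46) lower.

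CXCL16 differs from the other members in being made as a membrane-bound chemokine that the sheddases ADAM10 and ADAM17 release, with CXCR6 as its receptor. The gene (ENSG00000161921) lies on chromosome 17 from 4733533 to 4739928. It stood at 16.8, 16.1 and 14.7 CPM in L1high and at 11.0, 11.7 and 12.6 CPM in L1low replicates 1, 2 and 3, with no overlap. CXCL16 had a fold change of -0.43 (standard error 0.11, 95% interval -0.67 to -0.20, adjusted p = 0.0324). The call was lost without L1high replicate 1 (-0.39, adjusted p = 0.158), L1high replicate 2 (-0.42, adjusted p = 0.0634), L1low replicate 1 (-0.39, adjusted p = 0.103) and L1low replicate 2 (-0.43, adjusted p = 0.13). MED11, on the opposite strand, overlaps CXCL16 by 76 bases and had a fold change of -0.12 (adjusted p = 0.554).

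CCL20, the ligand of CCR6 that draws dendritic cells and lymphocytes to mucosa, lies on chromosome 2 from 227805739 to 227817564 (ENSG00000115009). It stood at 19.4, 19.3 and 13.5 CPM in L1high and at 14.4, 16.4 and 16.8 CPM in L1low replicates 1, 2 and 3. The groups overlapped, with L1high replicate 3 the lowest of all 6 libraries and the other L1high libraries above every L1low library. For CCL20 the fold change was -0.14 (standard error 0.14, 95% interval -0.45 to 0.17, adjusted p = 0.59). Without L1high replicate 3 it was -0.28 (adjusted p = 0.169), and CCL20 was called in 0 of 13 alternatives. A change of the size seen in CXCL8 lies outside this interval.

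IL18 encodes a cytokine that epithelial cells store as a precursor, which caspase-1 cleaves before release. The gene (ENSG00000150782) lies on chromosome 11 from 112143253 to 112164096. It stood at 33.7, 36.9 and 27.4 CPM in L1high and at 39.2, 32.5 and 30.2 CPM in L1low replicates 1, 2 and 3. The libraries of the groups were interleaved, with the highest value in L1low replicate 1 and the lowest in L1high replicate 3. The fold change was 0.05 (standard error 0.13, 95% interval -0.22 to 0.33, adjusted p = 0.84), and it turned to -0.04 without L1high replicate 3 and to -0.06 without L1low replicate 1. IL18 lies wholly within the model of ENSG00000255292 on the opposite strand, which stood at 2.63 ± 0.378 and 2.45 ± 0.280 CPM (SD, n = 3), well under the IL18 level of 32.7 ± 4.82 and 34.0 ± 4.66 CPM. IL1A, the alarmin that works both in the nucleus and, once released, at the IL-1 receptor, lies on chromosome 2 from 112773925 to 112784493 and was not analysed here.

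LIF, the leukaemia inhibitory factor of the IL-6 family, had the most negative fold change of the members. The gene (ENSG00000128342) lies on chromosome 22 from 30240453 to 30246759, with 3 exons in its main transcript. It stood at 183, 166 and 187 CPM in L1high and at 92.7, 97.7 and 100.4 CPM in L1low replicates 1, 2 and 3. The lowest L1high library, replicate 2, was well above the highest L1low library. The fold change was -0.88 (standard error 0.07, 95% interval -1.04 to -0.73, adjusted p = 1.7e-05), or 0.542 times the L1high level, and it was number 23 by p among the genes with lower values. It was called lower in all 13 alternatives, between -0.93 and -0.84, with an adjusted p of at most 0.000672.

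Both antisense transcripts at the ends of LIF had values lower in L1low cells. LIF-AS2, which overlaps 555 bases of LIF, stood at 7.73, 9.40 and 9.50 CPM in L1high and at 4.02, 4.62 and 4.86 CPM in L1low replicates 1, 2 and 3. Its fold change was -0.98 (standard error 0.15, adjusted p = 0.00184). LIF-AS1, which overlaps 86 bases, had a fold change of -0.95 (standard error 0.27, adjusted p = 0.0516) and did not pass. The libraries were stranded but the strand setting of the counting is not given in the sources used here, so reads of LIF and of its antisense partners cannot be told apart. In L1high cells their means were 8.88 and 2.06 CPM against 179 CPM for LIF.

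Per kilobase of exon the members ran over a wide range of levels. In L1high cells the order was CXCL5 (222.6 CPM per kb), CXCL1 (130.4), LIF (46.2), CXCL8 (32.8), CXCL2 (21.2), IL18 (12.5), CCL20 (10.9), CXCL3 (7.41) and CXCL16 (5.68). In that order only the ranges of IL18 and CCL20 overlapped over the libraries. In L1low cells the order of the means was the same, from CXCL5 at 185.8 to CXCL16 at 4.21 CPM per kb. There the ranges of CXCL2 and IL18 overlapped, as did those of CXCL3 and CXCL16. With the length of the longest transcript in place of all exons, the mean of CCL20 moved above that of IL18 in L1high cells (20.8 against 19.2). In L1low cells CXCL8 then moved above LIF (26.2 against 25.0) and IL18 and CCL20 above CXCL2 (20.0, 18.9 and 17.0).

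**Figure D4:**
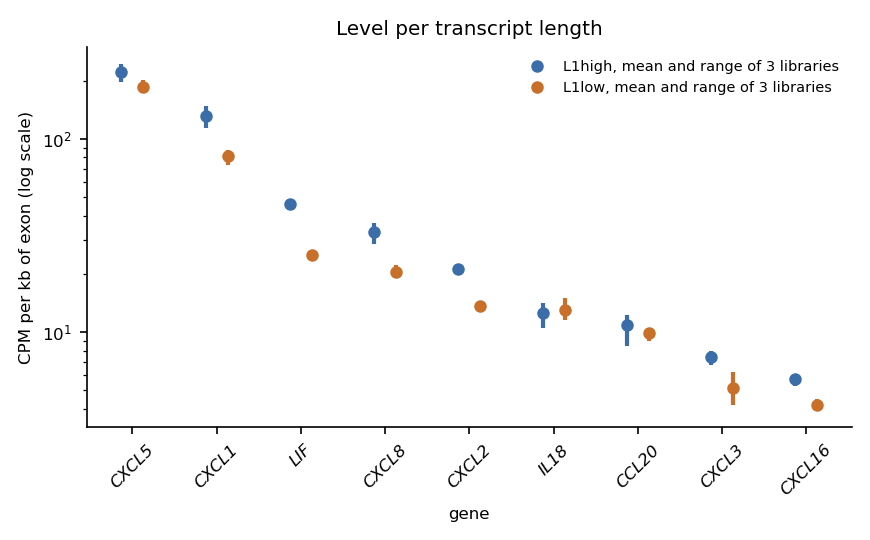
Level of each member in CPM per kilobase of exon on a log axis, for the L1high (blue) and L1low (orange) libraries, with points for means and bars for the range (n = 3). CXCL5 and CXCL1 stand highest and CXCL16 lowest in both populations.

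A feature outside the rule that many short-lived cytokine mRNAs share is the AUUUA pentamer of the 3′ untranslated region, at which ZFP36 proteins bind and start decay. The count was chosen after values were seen. CXCL5 held 11 pentamers, CXCL2 10, CXCL8 9, CXCL3 7, LIF 7, CXCL1 6, CCL20 3, CXCL16 1 and IL18 0, against a median of 2 over 13379 coding genes of the table. Relative to length CXCL2 was the densest, with 14.0 per kb, a density that 0.374% of these genes reach. LIF, with the most negative fold change, had 2.19 per kb, which 40.8% of genes reach. No relation between the pentamers and the fold changes was tested. Of 11 genes that bind or degrade such mRNAs, 2 were called higher in L1low cells and 0 lower, with a median of 0.07. ZFP36 itself rose from 399 to 560 CPM (0.49, standard error 0.06, adjusted p = 0.000468) and ZFP36L2 from 99.9 to 134 CPM (0.42, adjusted p = 0.00579, and adjusted p = 0.0534 without L1low replicate 2).

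The genes around the members were described with lists of related function. Counts called in these lists, and in that of the decay genes, stand beside 4.58% of all genes tested called higher and 3.37% called lower. Among 23 other chemokines, 5 were measured, of which 1 was called higher and 1 lower, with a median of -0.48. CXCL14, an epithelial chemokine without the ELR residues, rose from 3.76 to 9.42 CPM (1.32, standard error 0.14, adjusted p = 0.000113). CXCL10, an interferon-induced attractant of T cells, fell from 2.49 to 1.02 CPM (-1.29, standard error 0.28, adjusted p = 0.0164), and its call was lost without L1high replicate 2 (adjusted p = 0.0562), L1low replicate 2 (adjusted p = 0.0866) or L1low replicate 3 (adjusted p = 0.0569). DESeq2 gave CXCL10 no adjusted p and so no call. The direction among chemokine transcripts was therefore not shared by all that were called.

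Among 33 other cytokines, 17 were measured, of which 2 were called lower and 0 higher, with a median of -0.11. Both called genes belong to the family of LIF, whose ligands signal through gp130. IL6, the namesake of that family, fell from 4.14 to 2.21 CPM (-0.91, standard error 0.18, adjusted p = 0.00881). CLCF1, a ligand of the CNTF receptor, fell from 27.0 to 18.3 CPM (-0.56, standard error 0.10, adjusted p = 0.00458). Both were called in all 13 alternatives.

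Of 13 receptors and decoys of the members, 7 were measured, and none of CXCR1, CXCR2, CXCR6 and CCR6 was among them. The median was 0.03, with 2 called higher and 0 lower. IL1RAP, the shared chain of the IL-1 receptor, rose from 54.6 to 76.6 CPM (0.49, standard error 0.12, adjusted p = 0.0252), and IL18BP, the secreted decoy of IL-18, from 38.8 to 48.5 CPM (0.32, standard error 0.08, adjusted p = 0.0388). IL1R1, which encodes another chain of the IL-1 receptor, stood at -0.49 (adjusted p = 0.111) and did not pass. The receptor chains of LIF did not pass either, with LIFR at -0.11 (adjusted p = 0.66) and IL6ST, which encodes gp130, at 0.03 (adjusted p = 0.94). IL1RAP missed the threshold without L1high replicate 1 or 3 or L1low replicate 1 or 2, and IL18BP without any one library except L1high replicate 3, with adjusted p of at most 0.141 and 0.182.

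All 14 genes of processing and release were measured, of which 1 was called higher and 2 lower, with a median of 0.05. PYCARD, the ASC adaptor that joins inflammasome sensors to caspase-1, fell from 206 to 112 CPM (-0.88, standard error 0.10, adjusted p = 0.000299) and was called in all 13 alternatives. CASP1, the protease that matures IL-18, rose from 32.0 to 42.1 CPM (0.40, standard error 0.10, adjusted p = 0.0369). CAPN2, a calpain, the protease class that cleaves the IL-1α precursor, fell from 347 to 293 CPM (-0.24, standard error 0.06, adjusted p = 0.0241). The sheddases of CXCL16 did not pass, with ADAM10 at -0.07 (adjusted p = 0.648) and ADAM17 at 0.12 (adjusted p = 0.446). CASP1 missed the threshold without any one library except L1low replicate 2, and CAPN2 without any one except L1high replicate 2, with adjusted p of at most 0.151 and 0.123.

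Of 10 genes of the JAK-STAT3 pathway, a list that also holds IL6R and OSMR, receptor chains of related ligands, 3 were called higher in L1low cells and 0 lower, with a median of 0.15. SOCS3, the feedback inhibitor that STAT3 induces and that blocks gp130 signalling, rose from 79.1 to 129 CPM (0.71, standard error 0.07, adjusted p = 0.000116), in all 13 alternatives. IL6R (0.46, adjusted p = 0.0332) and BCL3 (0.26, adjusted p = 0.0383) also rose, while STAT3 stood at 0.03 (adjusted p = 0.821). The ligand LIF was thus lower and SOCS3 higher in the same libraries. IL6R missed the threshold without any one library except L1high replicate 3, and BCL3 without L1high replicate 1 or 2 or L1low replicate 2 or 3, with adjusted p of at most 0.163 and 0.195.

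Of 16 NF-kB subunits and feedback targets, 15 were measured, with 3 called higher, 0 lower and a median of 0.07. TNIP1, a partner of the inhibitor A20, had a fold change of 0.27 (adjusted p = 0.0329), REL one of 0.47 (adjusted p = 0.0331) and RELA one of 0.25 (adjusted p = 0.0405). NFKBIA, which encodes the inhibitor that NF-kB induces at once, stood at -0.04 (adjusted p = 0.772) and TNFAIP3, which encodes A20, at 0.09 (adjusted p = 0.645). BIRC3 (-0.34, adjusted p = 0.106), CHUK (-0.27, adjusted p = 0.0746) and NFKB2 (-0.18, adjusted p = 0.178) did not pass either. In these 3 every L1low library lay below every L1high library, a pattern that 13.7% of all genes tested showed. In 4 genes of the list, TNIP1, REL, RELA and the uncalled NFKBIZ (0.21, adjusted p = 0.0861), every L1low library lay above every L1high library. That pattern held in 2948 of the 19467 genes tested. With single libraries left out, TNIP1 lost the call without L1high replicate 1 or 2 or L1low replicate 2 or 3, REL without any except L1low replicate 3 and RELA without any except L1high replicate 3, with adjusted p of at most 0.147, 0.113 and 0.183.

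Among 12 immediate early and stress genes that handling and sorting can induce, 5 were called higher in L1low cells and 0 lower, with a median of 0.21 and a summed level of 8444 to 9065 CPM in L1high against 10376 to 11125 CPM in L1low libraries. ATF3 (0.49, adjusted p = 0.000378), FOSB (0.43, adjusted p = 0.00083), EGR1 (0.32, adjusted p = 0.00907), IER2 (0.37, adjusted p = 0.0264) and FOS (0.23, adjusted p = 0.0362) rose. ATF3 and FOSB kept the call in all 13 alternatives, EGR1 lost it without L1high replicate 1 (adjusted p = 0.0561) or L1low replicate 2 (adjusted p = 0.078), and IER2 and FOS lost it without L1high replicate 1 or 2 or L1low replicate 2, and also without L1low replicate 3 (IER2) or 1 (FOS), with adjusted p of at most 0.149 and 0.178. Their part in the values of the members was not tested.

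The epithelial label was checked against 8 markers, all of which were measured, with a summed level of 4633 to 5252 CPM in L1high and 5135 to 5527 CPM in L1low libraries. Of these, KRT19 was called higher, and EPCAM and CLDN4 lower. Of 14 leukocyte markers 2 were measured, with a sum of 19.7 to 24.0 CPM in L1high and 15.6 to 18.3 CPM in L1low libraries. ITGAX fell (-0.99, adjusted p = 0.00165), CD68 stood at 0.21 (adjusted p = 0.332), and PTPRC, the defining leukocyte gene, was not analysed here. Of 10 fibroblast and stellate cell markers 4 were measured, with a sum of 91.3 to 105 CPM in L1high and 146 to 165 CPM in L1low libraries, most of it LUM (0.78, adjusted p = 0.000135), with ACTA2 next (0.26, adjusted p = 0.243). Of 7 endothelial markers only PECAM1 was measured, at 11.3 to 11.9 and 13.2 to 14.7 CPM. The part of these markers in the values of the members was not tested.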

How the data were processed

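RNA of sorted L1high and L1low L3.6pl cells was sequenced in 3 stranded paired-end libraries each. BWA was used by the authors for alignment to GRCh38, and featureCounts for counting over the gene models of Ensembl 94. What they deposited are raw counts. The submitters' notes also name DESeq2 and GRCh38.p13. Versions, strand and multi-mapping settings are not given in the sources used here.

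Counts of all 6 libraries were tested in R 4.3.3 with edgeR 4.0.16 (TMM factors, filterByExpr, quasi-likelihood test, Benjamini-Hochberg adjustment), which kept 19467 of 19469 genes. A standard error is the fold change divided by the square root of F. The same fit on simulated data recovered 170 of 200 genes with a simulated log2 fold change of 1 among 19469, with 12 false calls. Every member changed by less than this, and smaller changes were not simulated, so this gives no recovery rate for the members. Symbols, positions and lengths came from GENCODE 44, and promoters from RefSeq. Counts of 2 libraries of a group were compared by chi-square, and the closest pair differed by 3.66 per degree of freedom, beyond sampling noise.

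Members and lists were chosen with earlier results of these data known. Named were all members, L1CAM, measured genes that overlap these and, per list, up to 5 called genes of smallest p. Where fewer than 2 were called, the 2 most abundant were also named. Other genes named, such as receptors, sheddases, STAT3, other NF-kB genes and cluster neighbours, were chosen after their values were seen. The comparison of protein sequences was not run. Alternatives left out each library, added a replicate block, used DESeq2 1.42.0, other scaling (RLE, upper quartile, library size), no filter, or at least 10 counts in every library.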

Additional observations from a re-analysis of the deposited data

How the results depend on the processing

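CXCL1, CXCL2, CXCL8 and LIF were called lower in all 13 alternatives, and between 4 and 7 members were called lower, with 0 called higher. The median of the members ran from -0.63 to -0.43 when single libraries were left out. The count of all genes called, 1548, ran from 627 (without L1low replicate 2) and 674 (without L1high replicate 1) to 1473 (without L1high replicate 3), with 393 to 859 higher and 234 to 614 lower, so a lost call in those fits goes with fewer calls over all genes. With the replicate number as a block, 2363 genes were called, 1143 of them lower, and 7 members, with CXCL5 added (adjusted p = 0.0122). CXCL6 (adjusted p = 0.0211) and 2 NF-kB genes were also called lower with the block. The main fit did not treat the numbers as pairs, since no label gives them as pairs. The correlations of the deviations of same-numbered libraries were 0.103, 0.0929 and 0.274, all positive, while those of different numbers averaged -0.08. Deviations were centred within each group, which ties these values to each other, so they cannot settle whether the libraries are paired. DESeq2, other scalings and other filters left the 6 calls of members as they were. Counts were lowest for CXCL3, CXCL16 and CCL20, at 166 to 412 per library; the part of depth in their standard errors was not tested.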

Other observations

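Beside the chemokine cluster of chromosome 4 lie genes of epidermal growth factor receptor ligands, which were looked at after their values were seen. EPGN, which encodes epigen, fell from 27.0 to 19.7 CPM (-0.46, standard error 0.10, adjusted p = 0.0132). AREG, which encodes amphiregulin, rose from 33.0 to 43.5 CPM (0.40, standard error 0.09, adjusted p = 0.0157). EREG, the most abundant of the 4, stood at 103 and 98.9 CPM (-0.06, adjusted p = 0.799) and BTC at 3.80 and 3.08 CPM (-0.30, adjusted p = 0.433). On the other side of CXCL8, RASSF6, a Ras-association domain gene, rose from 6.79 to 11.1 CPM (0.71, standard error 0.15, adjusted p = 0.0125). Neighbours of the chemokine genes thus included calls in both directions.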
